A study of Homo sapiens with 6 samples.

Results

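The integrin subunits described here are the 10 genes ITGA2, ITGA3, ITGA5, ITGA6, ITGAV, ITGB1, ITGB3, ITGB4, ITGB5 and ITGB6. They were chosen by symbol, with no measured value in the rule, and all 10 were found among the 38170 annotated features of the deposited table. All 10 also had enough counts to be tested, as did 19620 features in all. The table lists 26 integrin subunits in all. The 6 RNA libraries came from A549, an established line of human lung adenocarcinoma. In 3 libraries the cells overexpressed LOC401312, a long non-coding RNA, delivered with piggyBac, a transposon that carries a cassette into chromosomes, and in the other 3 they carried the empty vector. No group was labelled as treated further. The genotype labels of LOC401312 replicates 2 and 3 read LOC401313 and LOC401314, while titles and design text give LOC401312, which was followed here. Whether a line was 1 clone, and whether replicates were separate cultures, is not in the labels. All p-values therefore rest on the spread of these 6 libraries, part of which may be technical.

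Integrins are transmembrane receptors made of 1 α and 1 β chain, which hold cells to the extracellular matrix and signal in both directions across the membrane. The α chain largely sets the ligand: α2 with β1 binds collagen, α3 with β1 and α6 with β1 or β4 bind laminin, α5 with β1 binds fibronectin, and αV with β1, β3, β5, β6 or β8 binds ligands that carry the RGD motif, such as vitronectin and fibronectin. β4 differs from the other β chains in a long cytoplasmic tail that links α6β4 to keratin filaments in hemidesmosomes, and αVβ6 and αVβ8 are known as activators of latent TGF-β.

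LOC401312 has no row of its own. The STEAP1B entry that contains it held 94628, 92527 and 90297 counts in LOC401312 libraries 1 to 3, against 9, 11 and 23 counts in vector libraries 1 to 3. These counts do not tell LOC401312 from the rest of that entry. Library totals were 60971105 to 73994619 counts. Levels are given as CPM, counts scaled to TMM-adjusted library totals, and differences as log2 changes of LOC401312 over vector. A change was called at an adjusted p under 0.05 in edgeR's quasi-likelihood test. Of 8 lung epithelial markers, the keratins KRT7, KRT8 and KRT18 were at 1434 to 5147 CPM over the 6 libraries. The epithelial cadherin CDH1 was at 104 to 109.6 CPM in LOC401312 and 74.5 to 77.9 CPM in vector. The epithelial adhesion gene EPCAM was low, at 2.23 to 2.85 CPM in LOC401312 and 1.69 to 2.66 CPM in vector. The lung identity factor NKX2-1 and the surfactant genes SFTPB and SFTPC had 0 to 25 counts per library. Of the marker lists for other cell types, the summed trophoblast markers were 78.7 and 81.4 CPM in LOC401312 libraries 2 and 3, against 1.28 CPM in LOC401312 library 1 and 0.687 to 1.49 CPM in vector. Fibroblast markers summed to 18.9 to 21.3 CPM in LOC401312 and 27.0 to 52.9 CPM in vector, urothelial and squamous markers to 15.2 to 17.5 CPM and 21.5 to 24.5 CPM, haematopoietic markers to 17.1 to 18.6 CPM and 16.8 to 24.5 CPM, megakaryocyte and platelet markers to 6.93 to 7.37 CPM and 4.21 to 6.69 CPM, and endothelial markers to 1.46 to 2.74 CPM and 1.74 to 1.98 CPM, LOC401312 and vector in each pair. No marker list had a gene at 0 in all 6 libraries. The part of such RNA in the integrin values was not tested.

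Of the 10 subunits, 5 rose, 2 fell and 3 did not pass the test. Those that rose were ITGB3, ITGA5, ITGA2, ITGA3 and ITGB1, with log2 changes from 0.12 to 0.95. Those that fell were ITGA6 (-0.4) and ITGB4 (-0.31), the chains that pair as the laminin receptor α6β4. ITGAV, ITGB5 and ITGB6 did not pass. Over all features tested, 8.72% were called, 4.13% higher and 4.58% lower, and among the 9884 features with a mean of at least 10 CPM, a mean reached by every member but ITGB6, 13.5% were called, 5.83% higher and 7.71% lower. Leaving out LOC401312 replicates 2 and 3, the libraries with high trophoblast markers, left a lone LOC401312 library, so only sizes of change are given. The log2 changes were then 1.06 for ITGB3, 0.43 for ITGA5, 0.33 for ITGA2, 0.18 for ITGA3, 0.09 for ITGB1, -0.46 for ITGA6 and -0.31 for ITGB4. Without any 1 of LOC401312 replicate 2, LOC401312 replicate 3 or vector replicate 3 the count of subunits higher was 3. Over all features, 393 to 429 were called higher in these settings, against 811 in the main test. The median log2 change was 0.16 over the 10 members and -0.00066 over all features. In 8 of the 10 the ranges of the groups did not overlap in CPM, as in 27.9% of the features tested; in FPKM the ranges did not overlap for 7 of the 10 and for 33.5% of the features. These 2 shares include features of low count, and they were not taken for those with a mean of at least 10 CPM.

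**Figure D1:**
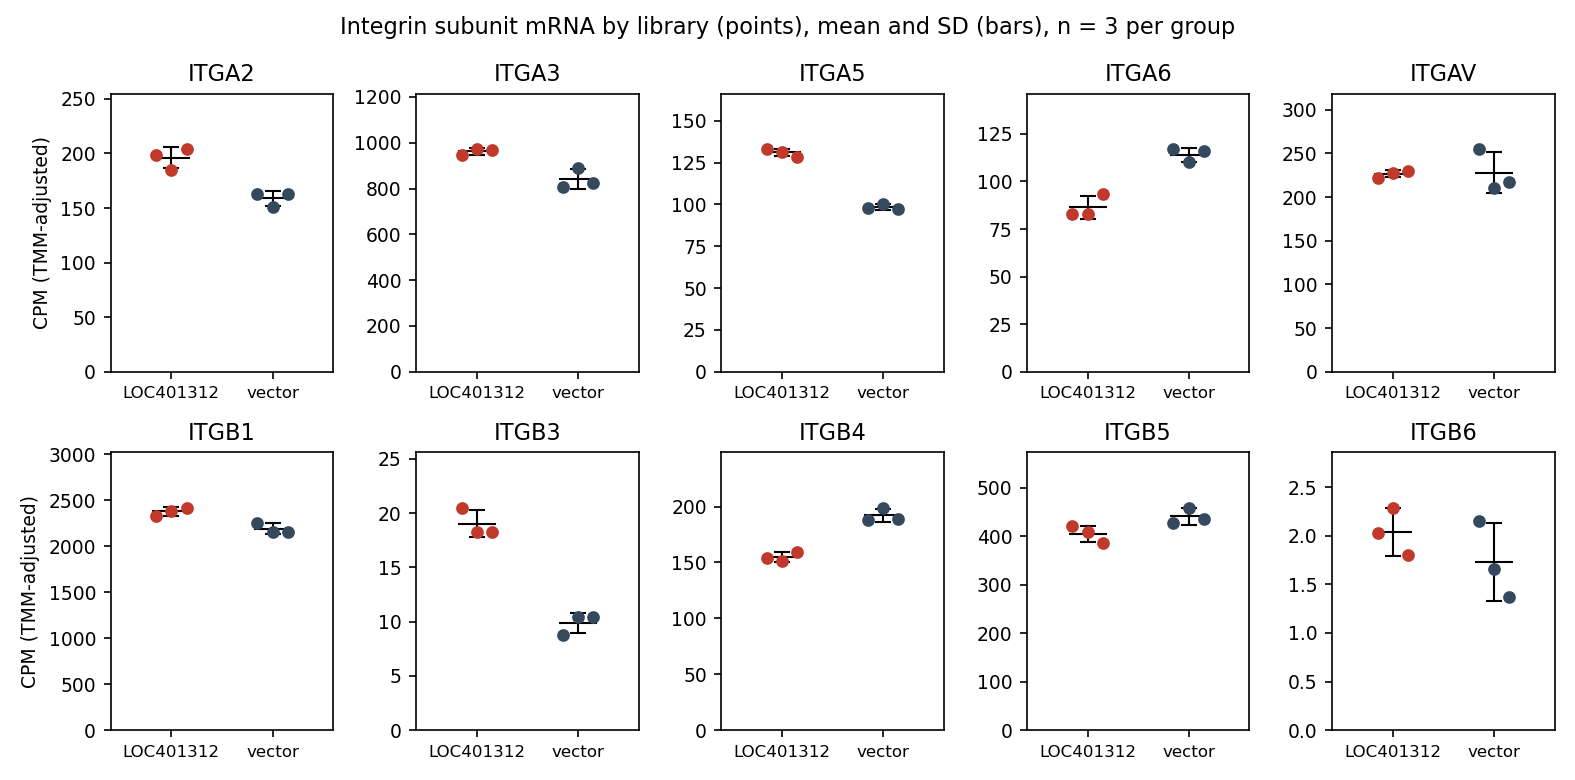
Level of each integrin subunit in every library, in CPM on an axis from 0, with LOC401312 at the left and vector at the right of each panel; points are libraries and bars the mean and SD of 3. The LOC401312 points lie above all vector points for ITGA2, ITGA3, ITGA5, ITGB1 and ITGB3, below them for ITGA6, ITGB4 and ITGB5, and among them for ITGAV and ITGB6.

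ITGB3 (ENSG00000259207; chromosome 17, 47253827 to 47313743, plus strand of GRCh38, as are all coordinates here), which pairs with αV to bind vitronectin, had the largest rise of the 10. It was at 20.5, 18.3 and 18.3 CPM in LOC401312 libraries 1 to 3, against 8.79, 10.4 and 10.4 CPM in vector libraries 1 to 3. The groups did not overlap, and every LOC401312 library was above the highest vector library, 10.4 CPM. The fold was 1.93, a log2 change of 0.95 (SE 0.1, edgeR adjusted p = 0.000326). It was called under every alternative tried that kept more than 1 LOC401312 library. These values rest on 1219 to 1443 counts per LOC401312 library and 619 to 653 counts per vector library. In platelets the β3 chain pairs with αIIb, and ITGA2B, which encodes αIIb, was at 1.79 ± 0.324 CPM in LOC401312 and 1.78 ± 0.245 CPM in vector (SD, n = 3 each).

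ITGA5 (ENSG00000161638; chromosome 12, 54395261 to 54419266, minus strand), the α chain of the classical fibronectin receptor, was at 133, 131 and 128 CPM in LOC401312 libraries 1 to 3, against 97.6, 100.3 and 97.4 CPM in vector libraries 1 to 3. The libraries of each group lay within a few CPM of each other and the groups were apart. The level was 131 ± 2.25 CPM in LOC401312 and 98.4 ± 1.61 CPM in vector (SD, n = 3 each), a log2 change of 0.41 (SE 0.04, edgeR adjusted p = 0.000234). ITGA5 lies on chromosome 12, where the median log2 change of 642 features with a mean of at least 4 CPM was 0.12. After subtraction of the median shift of every chromosome per library, by which 6.16% of features were called, ITGA5 had a log2 change of 0.29 and stayed called (edgeR adjusted p = 0.00176).

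ITGA2 (ENSG00000164171; chromosome 5, 52989340 to 53094779, plus strand), the collagen-binding α2 chain, was at 199, 185 and 204 CPM in LOC401312 libraries 1 to 3, against 163, 151 and 163 CPM in vector libraries 1 to 3. The groups did not overlap, and the change was 0.3 (SE 0.05, edgeR adjusted p = 0.00486). ITGA3 (ENSG00000005884; chromosome 17, 50055968 to 50090480, plus strand), the α3 chain that binds laminin-332 with β1, was the most abundant α subunit per length (FPKM), and was at 947, 972 and 969 CPM in LOC401312 libraries 1 to 3, against 807, 889.7 and 823 CPM in vector libraries 1 to 3. Its LOC401312 libraries were all above its vector libraries, with a log2 change of 0.2 (SE 0.04, edgeR adjusted p = 0.0153). The call of ITGA3 was lost without LOC401312 replicate 2 (edgeR adjusted p = 0.0761), LOC401312 replicate 3 (0.0658) or vector replicate 3 (0.0782).

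ITGB1 (ENSG00000150093; chromosome 10, 32900318 to 33005792, minus strand), the shared partner of α2, α3, α5, α6 and αV, was the most abundant of the 10 subunits per length (FPKM). It was at 2328, 2385 and 2419 CPM in LOC401312 libraries 1 to 3, against 2257, 2158 and 2155 CPM in vector libraries 1 to 3. The lowest LOC401312 library was above the highest vector library, but by little. The change was small, 0.12 on the log2 scale (SE 0.03), and stood at the threshold (edgeR adjusted p = 0.0491). It passed in 8 of 17 alternatives, which include a fit with a lone LOC401312 library whose call is not read. The call was lost when any of the libraries other than vector replicate 1 was left out (edgeR adjusted p up to 0.165).

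The chains of α6β4 were both lower. ITGA6 (ENSG00000091409; chromosome 2, 172427354 to 172506459, plus strand) was at 82.8, 83.0 and 93.4 CPM in LOC401312 libraries 1 to 3, against 117, 110.1 and 116 CPM in vector libraries 1 to 3. Every LOC401312 library was below every vector library, with 86.4 ± 6.08 CPM in LOC401312 and 114 ± 3.66 CPM in vector (SD, n = 3 each). ITGB4 (ENSG00000132470; chromosome 17, 75721328 to 75757818, plus strand) was at 154, 151 and 159 CPM in LOC401312 libraries 1 to 3, against 188, 199 and 189 CPM in vector libraries 1 to 3. Here too the groups did not overlap. The log2 changes were -0.4 (SE 0.06, edgeR adjusted p = 0.00183) for ITGA6 and -0.31 (SE 0.04, edgeR adjusted p = 0.00152) for ITGB4. The genes lie on different chromosomes, and the median of chromosome 2, which holds ITGA6, was itself lower. With chromosome medians removed ITGA6 was at -0.17 and its call was lost (edgeR adjusted p = 0.0915), while ITGB4 was at -0.32 and stayed called (edgeR adjusted p = 0.00132). The span of ITGB4 overlaps GALK1 on the opposite strand, and the sources used here do not give the strand setting of the counting. GALK1 held 14.1 to 21.0% as many counts as ITGB4 and had a log2 change of 0.07 (edgeR adjusted p = 0.656).

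The 250 bases before the start are shown for the 2 α subunits with the largest rises among the 10 members, ITGA5 and ITGA2, and for ITGA6, which fell, from RefSeq on GRCh38.p14 and 5′ to 3′. Of the 10 genes 7 matched the table of promoters. ITGA6 has a second start further downstream, whose window held 3 matches to the SP1 motif and no E-box, and the upstream one is shown. Capitals mark matches on either strand to the SP1 motif GGGCGG, the TEAD motif CATTCC, the E-box CACGTG or the AP-1 motif TGANTCA.
ITGA5, chr12:54419267-54419516, minus strand: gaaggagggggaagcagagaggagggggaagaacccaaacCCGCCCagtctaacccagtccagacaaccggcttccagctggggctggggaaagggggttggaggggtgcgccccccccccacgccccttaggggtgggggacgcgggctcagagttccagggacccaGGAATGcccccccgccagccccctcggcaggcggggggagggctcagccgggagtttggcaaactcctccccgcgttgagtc
ITGA2, chr5:52989102-52989351, plus strand: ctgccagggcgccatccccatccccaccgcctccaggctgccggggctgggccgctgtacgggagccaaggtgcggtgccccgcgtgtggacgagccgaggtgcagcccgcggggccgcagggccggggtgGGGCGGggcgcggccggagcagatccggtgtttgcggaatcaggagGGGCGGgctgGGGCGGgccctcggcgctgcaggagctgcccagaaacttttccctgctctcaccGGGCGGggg
ITGA6, chr2:172427086-172427335, plus strand: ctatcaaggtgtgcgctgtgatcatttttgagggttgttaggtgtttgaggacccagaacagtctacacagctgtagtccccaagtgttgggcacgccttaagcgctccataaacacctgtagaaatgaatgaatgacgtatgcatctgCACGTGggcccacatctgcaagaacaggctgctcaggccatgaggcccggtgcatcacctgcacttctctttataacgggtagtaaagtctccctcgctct

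ITGA2 held 4 matches to the SP1 motif, ITGA5 held 1 to SP1 and 1 to TEAD, and ITGA6 held 1 E-box in its window. None of these 3 windows matched the AP-1 motif. Of the 35116 promoter windows of the same length, 42.6% held the SP1 motif, 11.9% the TEAD motif, 6.34% the E-box and 6.57% the AP-1 motif. The share of G and C was 70.0% for ITGA5, 76.4% for ITGA2 and 50.8% for ITGA6, against a median of 58.0% over all windows. The matches describe the letters in these windows and no factor was measured at them.

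The 3 subunits that did not pass differed in how well they were measured. ITGAV (ENSG00000138448; chromosome 2, 186590056 to 186680901, plus strand), the α chain shared by the RGD-binding receptors, was at 222, 228 and 230.5 CPM in LOC401312 libraries 1 to 3, against 255, 211 and 217 CPM in vector libraries 1 to 3. The LOC401312 libraries lay inside the range of the vector libraries, whose first replicate was high. The change was -0.00409 (95% interval -0.15 to 0.14, edgeR adjusted p = 0.981), so the interval reaches from a fold of 0.902 to 1.1.

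ITGB5 (ENSG00000082781; chromosome 3, 124761948 to 124901418, minus strand), a vitronectin-binding partner of αV, was at 421, 408 and 387 CPM in LOC401312 libraries 1 to 3, against 427, 459 and 436 CPM in vector libraries 1 to 3. All LOC401312 libraries were lower in CPM, with a change of -0.12 (95% interval -0.22 to -0.02) that did not pass over all features (edgeR adjusted p = 0.128). DESeq2, which called 13.9% of its features, called it lower (DESeq2 adjusted p = 0.038), whereas its FPKM ranges overlapped. ITGB6 (ENSG00000115221; chromosome 2, 160099667 to 160200313, minus strand), the partner of αV in a receptor that activates latent TGF-β, was the lowest of the members, at 2.03, 2.29 and 1.8 CPM in LOC401312 libraries 1 to 3, against 2.15, 1.66 and 1.37 CPM in vector libraries 1 to 3. The groups overlapped, and with 84 to 160 counts per library the interval of the change was wide (0.24, 95% interval -0.29 to 0.77, edgeR adjusted p = 0.633). Another entry overlaps ITGB6 on the same strand and held 3.12 to 29.2% as many counts, so reads of the 2 may not be told apart.

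**Figure D2:**
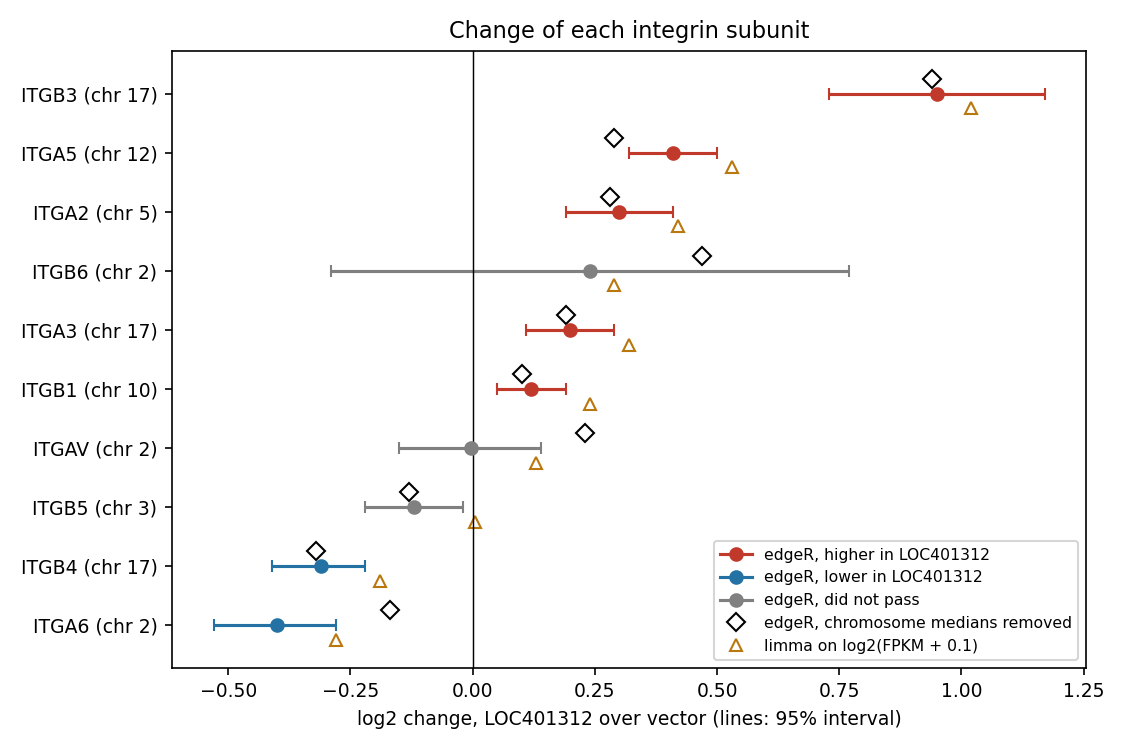
Log2 change of each integrin subunit, LOC401312 over vector, with its 95% interval from edgeR (filled circles and lines), the value with chromosome medians removed (diamonds) and the limma value from deposited FPKM (triangles). ITGB3 is farthest right at 0.95 and ITGA6 farthest left at -0.40. Removing chromosome medians brings ITGA6 to -0.17, ITGAV to 0.23 and ITGA5 to 0.29.

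The members on chromosome 2 are ITGA6, ITGAV and ITGB6. Of the 1285 features tested there, 27.1% were called lower and 1.32% higher, and the median log2 change of the 780 with a mean of at least 4 CPM was -0.23. Around ITGA6, 66 tested neighbours with a start within 5 Mb had a median of -0.27, with 22 called lower and 0 higher. ITGA6, at -0.4, was below that median, and 25.8% of its neighbours were at or below it. Around ITGAV, 46 neighbours had a median of -0.23, with 12 called lower and 2 higher, and 67.4% were at or below ITGAV. Around ITGB6, 39 neighbours had a median of -0.17, with 6 called lower and 1 higher, and 87.2% were at or below ITGB6. With chromosome medians removed, ITGAV was at 0.23 (edgeR adjusted p = 0.0583) and ITGB6 at 0.47 (edgeR adjusted p = 0.309). How much of the values of ITGA6, ITGAV and ITGB6 belongs to the shift of the chromosome was not tested beyond this. ITGA4, an α chain typical of leukocytes, also lies on chromosome 2 and was at 9.48 ± 0.522 CPM in LOC401312 and 8.85 ± 0.21 CPM in vector (SD, n = 3 each), with a change of 0.1 (edgeR adjusted p = 0.623), or 0.33 with chromosome medians removed (edgeR adjusted p = 0.0793). Neighbours of ITGA5 on chromosome 12 had a median of 0.08, with 14 of 213 called higher and 3 lower.

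**Figure D3:**
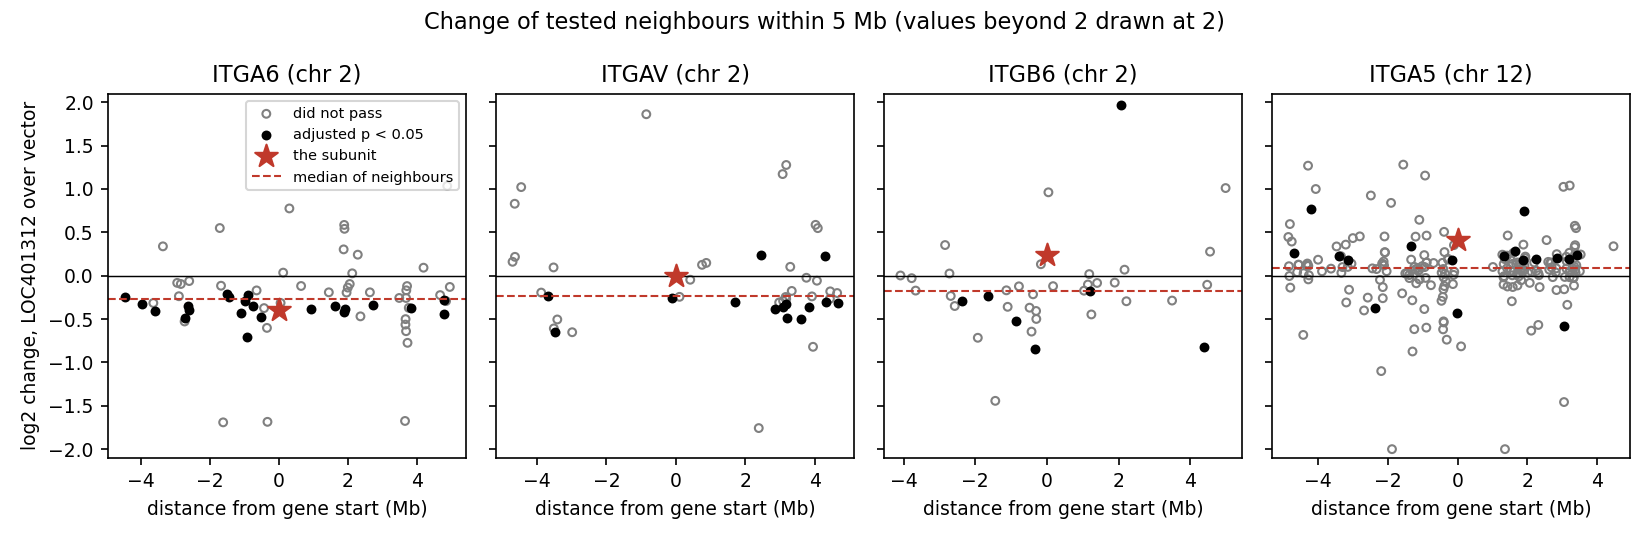
Log2 change, LOC401312 over vector, of tested features with a start within 5 Mb of ITGA6, ITGAV, ITGB6 and ITGA5, against distance from the subunit's start in Mb; stars mark the subunit and dashed lines the median of the neighbours, with values beyond 2 drawn at 2; the medians are -0.27, -0.23, -0.17 and 0.08. The star of ITGA6 lies below its line and those of ITGAV, ITGB6 and ITGA5 above theirs.

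Levels of different subunits were compared in FPKM, which scales counts for length. In both groups ITGB1 was highest, at 346 ± 2.42 FPKM in LOC401312 and 292 ± 19.7 FPKM in vector (SD, n = 3 each), followed by ITGA3, at 85.9 ± 0.26 FPKM in LOC401312 and 68.7 ± 2.77 FPKM in vector (SD, n = 3 each), and ITGB5, at 54.4 ± 2.97 FPKM in LOC401312 and 54.2 ± 1.59 FPKM in vector (SD, n = 3 each). The next levels in LOC401312 were ITGAV (24.1), ITGA2 (21.7), ITGB4 (20.3, 19.4 and 20.4 in its 3 libraries), ITGA5 (15.5) and ITGA6 (11.3 FPKM), of which ITGA2 and ITGB4 overlapped in range and the other neighbours in this order did not. In vector they were ITGB4 (22.8), ITGAV (22.3), ITGA2 (16.2), ITGA6 (13.7) and ITGA5 (10.7 FPKM), of which ITGB4 and ITGAV overlapped and the other neighbours did not. ITGA5 thus stood above ITGA6 in LOC401312 and below it in vector, with no overlap of the 2 genes in either group. ITGB3 was at 2.62 ± 0.214 FPKM in LOC401312 and 1.24 ± 0.0693 FPKM in vector (SD, n = 3 each), and ITGB6 was lowest, at 0.307 ± 0.0351 FPKM in LOC401312 and 0.237 ± 0.0666 FPKM in vector (SD, n = 3 each). On the log2 scale the deposited FPKM values were shifted upward in LOC401312 by 0.109 (the median of the features averaging 5 FPKM or more), so differences between groups in FPKM are to be read against that value. In limma on log2(FPKM + 0.1), which called 10.0% of its features, the same 5 subunits were called higher and the same 2 lower, with ITGA6 at -0.28, ITGB4 at -0.19 and ITGB5 at 0.0044.

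**Figure D4:**
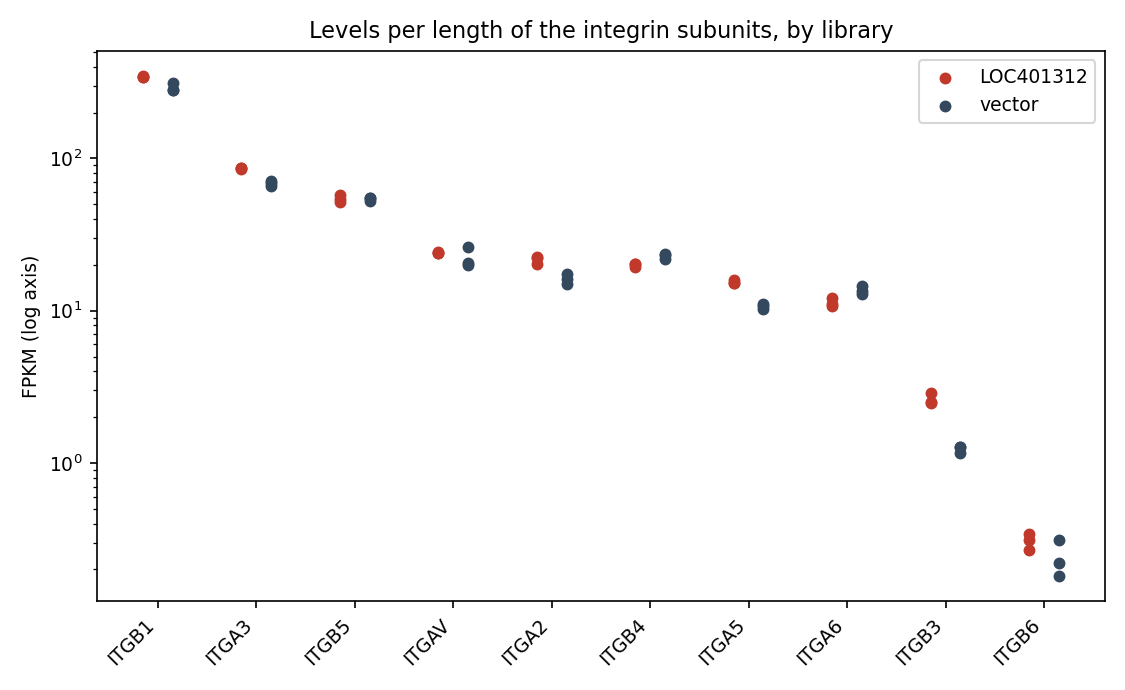
Deposited FPKM of each integrin subunit in every library on a log axis, ordered by the mean in LOC401312, with LOC401312 libraries at the left and vector libraries at the right of each gene. Levels span from 346 FPKM for ITGB1 to 0.307 FPKM for ITGB6 in LOC401312, and ITGB3 shows the widest gap between groups.

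Among β3, β5, β6 and β8, the partners of αV apart from β1, ITGB5 made up most of the transcripts. Its share of the summed FPKM of ITGB3, ITGB5, ITGB6 and ITGB8 was 93.8 ± 0.141% in LOC401312 and 96.7 ± 0.0795% in vector (SD, n = 3 each). The share of ITGB3 was 4.52 ± 0.178% in LOC401312 and 2.21 ± 0.163% in vector, and that of ITGB8 1.14 ± 0.126% and 0.636 ± 0.106%; these shares were looked at after the values were seen and were not tested. ITGB3 also pairs with αIIb. The share of ITGB6 was 0.506, 0.587 and 0.492% in LOC401312 libraries 1 to 3, against 0.545, 0.385 and 0.332% in vector libraries 1 to 3. The groups overlapped, and the exact two-sided permutation test over libraries gave p = 0.3, where 0.1 is the smallest value that 3 against 3 allow.

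The table holds 16 other integrin subunits. Of the 14 that were tested, 2 rose and 0 fell (median log2 change 0.09), a share near that of all features (8.72% called, or 13.5% of those with a mean of at least 10 CPM). ITGB8, the other β chain that activates latent TGF-β with αV, rose: it was at 10.7, 11.2 and 12.2 CPM in LOC401312 libraries 1 to 3, against 7.7, 6.17 and 6.13 CPM in vector libraries 1 to 3, and the groups did not overlap (0.77, SE 0.12, edgeR adjusted p = 0.00366). ITGB8 starts at 20330702 on chromosome 7, where the STEAP1B entry starts at 22419444. The 50 tested neighbours of ITGB8 within 5 Mb had a median log2 change of 0.1, with 5 called higher and 0 lower. Of them, 88.0% were at or below ITGB8. The median was 0.24 for the 11 neighbours within 2 Mb and 0.06 for the 103 within 10 Mb. The median of chromosome 7 was -0.01. The part of this position in the change of ITGB8 was not tested. ITGA10, a collagen-binding chain known from cartilage, was at 3.39 ± 0.217 CPM in LOC401312 and 1.84 ± 0.551 CPM in vector (SD, n = 3 each). Its log2 change was 0.89 (SE 0.24, edgeR adjusted p = 0.0448). It kept its call in only 6 of 17 alternatives, which include a fit with a lone LOC401312 library whose call is not read.

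Ligands of these receptors were taken from a list of 26 matrix and adhesion genes. Of these 11 rose, 3 fell and 12 did not pass, with a median log2 change of 0.07, beside 8.72% of all features called and 13.5% of those with a mean of at least 10 CPM. LAMB3, a laminin chain of epithelial basement membranes, was at 125 ± 2.55 CPM in LOC401312 and 85.0 ± 6.25 CPM in vector (SD, n = 3 each), with a log2 change of 0.56 (SE 0.06, edgeR adjusted p = 0.000254). LAMA3, another laminin chain of epithelia, had a change of 0.27 (SE 0.04, edgeR adjusted p = 0.00372). LAMA4, a laminin chain of vessel and muscle basement membranes, was at 15.3 ± 0.352 CPM in LOC401312 and 6.36 ± 0.397 CPM in vector (SD, n = 3 each), with a log2 change of 1.26 (SE 0.09, edgeR adjusted p = 5.34e-05). The matrix glycoprotein TNC was at 62.1 ± 0.377 CPM in LOC401312 and 35.6 ± 2.62 CPM in vector (SD, n = 3 each), with a log2 change of 0.81 (SE 0.06, edgeR adjusted p = 4.96e-05). Fibronectin, FN1, the ligand of α5β1, was lower, at 1120.3 ± 61.2 CPM in LOC401312 and 1441 ± 40.1 CPM in vector (SD, n = 3 each), with a change of -0.36 (edgeR adjusted p = 0.000793). FN1 lies on chromosome 2, and with chromosome medians removed it was at -0.13 and no longer called (edgeR adjusted p = 0.0995), nor was it called in limma on FPKM. COL1A1, a chain of type I collagen, was at 12.1 ± 0.79 CPM in LOC401312 and 23.4 ± 1.5 CPM in vector (SD, n = 3 each). Its log2 change was -0.95 (SE 0.09, edgeR adjusted p = 0.000149). COL1A1 is also 1 of the 6 fibroblast markers and a large part of their sum, which was higher in vector. Among the other fibroblast markers, the groups overlapped for PDGFRA, DCN, LUM and COL3A1. PDGFRB went the other way, at 0.61 to 0.824 CPM in LOC401312 and 0.217 to 0.458 CPM in vector. LAMA3 and FN1 were named after their values were seen.

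Of 31 activators and adaptors that couple integrin tails to actin or to kinases, 6 rose, 2 fell and 23 did not pass (median 0.01), beside 8.72% of all features called and 13.5% of those with a mean of at least 10 CPM. Paxillin, PXN, a scaffold of focal adhesions, was at 316 ± 10.4 CPM in LOC401312 and 248 ± 5.3 CPM in vector (SD, n = 3 each), a log2 change of 0.35 (SE 0.04, edgeR adjusted p = 0.000582). TNS2, a tensin, had a change of 0.34 (edgeR adjusted p = 0.00396), and vinculin, VCL, which binds talin and actin, of 0.27 (edgeR adjusted p = 0.00409). PXN and TNS2 lie on chromosome 12 and were at 0.23 (edgeR adjusted p = 0.00626) and 0.22 (edgeR adjusted p = 0.0367) with chromosome medians removed. The kinase SRC fell, with a change of -0.23 (edgeR adjusted p = 0.0102). The call of SRC was lost without LOC401312 replicate 2 (edgeR adjusted p = 0.0609) and in limma on FPKM (limma adjusted p = 0.15 to 0.156). Of 3 inhibitors, 0 rose, 1 fell and 2 did not pass (median -0.16), beside the same shares of all features. The 1 that fell was ITGB1BP1, which binds the β1 tail in competition with talin. ITGB1BP1 was lower by 0.28 on the log2 scale (edgeR adjusted p = 0.00345). It lies on chromosome 2 and was at -0.05 (edgeR adjusted p = 0.571) with chromosome medians removed, and its call was also lost in limma on FPKM.

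Of 7 hemidesmosome components and tetraspanins, the membrane partners of laminin-binding integrins, 3 rose, 0 fell and 4 did not pass (median 0.22), beside 8.72% of all features called and 13.5% of those with a mean of at least 10 CPM. Plectin, PLEC, which ties the β4 tail to keratin, was at 1046 ± 29.9 CPM in LOC401312 and 897 ± 52.9 CPM in vector (SD, n = 3 each), a log2 change of 0.22 (SE 0.05, edgeR adjusted p = 0.0136). Dystonin, DST, of the same plaque, had a change of 0.25 (edgeR adjusted p = 0.033), and the tetraspanin CD82 of 0.92 (edgeR adjusted p = 0.00115). These 3 genes were thus higher in the libraries in which ITGA6 and ITGB4 were lower. The 4 that did not pass, COL17A1, CD151, CD9 and CD81, had log2 changes of 0.22, 0.09, -0.09 and 0.02. The calls of PLEC and DST were lost on leaving out any of several single libraries (for PLEC LOC401312 replicate 1 or 3 or vector replicate 3; for DST any but vector replicate 1), and that of DST in limma on FPKM.

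**Figure D5:**
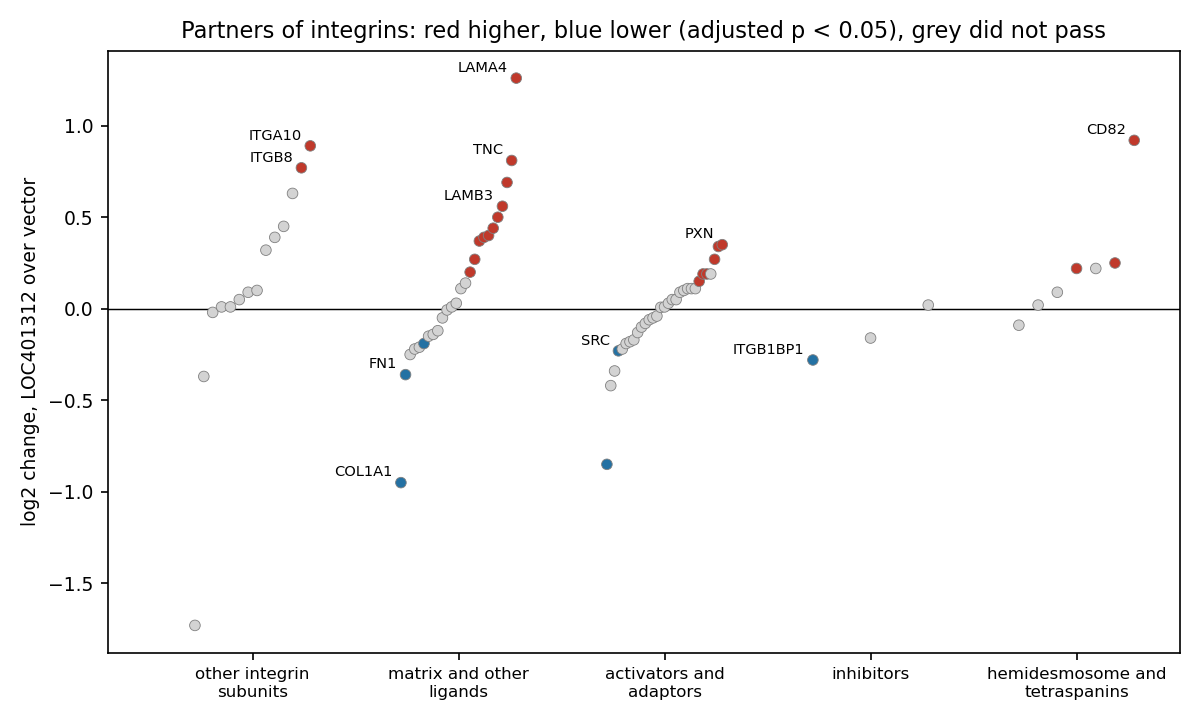
Log2 change, LOC401312 over vector, of every tested gene in the lists of other integrin subunits, ligands, activators and adaptors, inhibitors, and hemidesmosome components with tetraspanins; each point is a gene, ordered by its value, red where called higher, blue where called lower and grey where it did not pass. LAMA4 is the highest point at 1.26 and COL1A1 the lowest called at -0.95.

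For the 3 subunits with the smallest p, the feature with the most similar profile over the 6 libraries was sought among features with a mean of at least 10 CPM, by the mean absolute difference of centred log2 CPM. For ITGA5 it was SEC14L2, at a distance of 0.0126, for ITGB3 PCED1B, at 0.05, and for ITGB4 MELK, at 0.00723. With 6 libraries in 2 groups and 9878 features searched, such matches describe these libraries only.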

How the data were processed

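RNA-seq of A549 covered 3 LOC401312 and 3 vector libraries, grouped and numbered by their titles. The authors deposited 1 table with a raw count and an FPKM value for each feature in each library, per the file headers; raw counts carry no normalization, and the length and total behind FPKM were not given in the sources used here. Tools named are cutadapt 1.9 and FastQC, with the build GRCh38, per the submitters' processing notes; aligner, counter, annotation release and strand setting were not given in the sources used here. Of the 38170 features, 4900 had 0 counts in all libraries. Replicates were compared pairwise within groups: chi-square over its degrees of freedom was 13.68 to 22.86, beyond sampling noise, so no library was a duplicate of another.

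Counts were tested with edgeR 4.0.16 (R 4.3.3): TMM scaling, filterByExpr, quasi-likelihood test with group as the only term, and Benjamini-Hochberg adjustment over all 19620 features tested, with a threshold of 0.05. Adjusted p-values are from this fit unless another tool is named; the SE is the log2 change over the root of the F statistic, and intervals are at 95%. The scripts were tested on simulated data. The alternatives were DESeq2 1.42.0, limma 3.58.1 on log2(FPKM + 0.1), + 1 and + 0.01 (features with a mean FPKM over 0.1), other scalings and filters, a block for the replicate number, leaving out each library in turn, LOC401312 replicates 2 and 3 left out together, and chromosome medians removed (median deviation of each chromosome per library, features with a mean of at least 4 CPM, as an offset).

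The members, the gene lists, the alternatives and the rule for named genes were chosen with earlier results of these data known. The rule named the 10 members, ITGB8 and ITGA4, up to 4 called genes per list with the smallest p, and 1 nearest profile for 3 members (features with 0 counts in a library left out there). Shares within a library used the exact permutation test over libraries. The biological coefficient of variation was 17%. The result of 1 listed gene is not reported here.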

Additional observations from a re-analysis of the deposited data

How the results depend on the processing

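The direction of ITGA2, ITGA3, ITGA5, ITGA6, ITGB1, ITGB3, ITGB4 and ITGB6 was the same in all 17 alternatives. ITGA5 and ITGB3 were called in each alternative that kept more than 1 LOC401312 library. The sign of ITGAV, near 0, turned positive with DESeq2 (0.0012), total-count scaling (0.02), no filter (0.0046), the replicate block (0.00094), chromosome medians removed (0.23), limma on FPKM (0.12 to 0.13), without LOC401312 replicate 1 (0.01) and without vector replicate 1 (0.08; -0.06 to 0.08 over the libraries left out in turn), and that of ITGB5 in limma on FPKM (0.0043 to 0.0044). The cause was not tested; the shift of the FPKM values was 0.109 and the chromosome 2 median -0.23. The count of subunits higher, 5, was 3 to 5 on leaving out 1 library. ITGB1 also dropped out of it with chromosome medians removed (edgeR adjusted p = 0.0634), the replicate block (0.136) and no filter (0.0981). The count lower, 2, was 1 with chromosome medians removed and 2 on leaving out any 1 library. DESeq2 added ITGB5 to those lower (DESeq2 adjusted p = 0.038). Without LOC401312 replicates 2 and 3, the lone LOC401312 library is assumed to vary like the vector ones, so no count of subunits is given there.

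Over all features, 811 were higher and 899 lower. These counts were 509 and 579 with the replicate block, 84 and 91 without LOC401312 replicates 2 and 3, 683 and 526 with chromosome medians removed, 586 and 577 with no filter, and 1604 and 309, 1590 and 305, and 1572 and 297 in limma with pseudocounts of 0.1, 1 and 0.01. The share higher was 83.8% in limma on log2(FPKM + 0.1), against 47.4% in the main test. On leaving out 1 library they were 393 to 963 higher and 439 to 1042 lower. The replicate numbers did not pair the libraries: same-numbered libraries had correlations of deviations of -0.199, 0 and -0.111, and with the block ITGB1 lost its call (edgeR adjusted p = 0.136).

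The median of the neighbours of ITGA6 was -0.23 within 10 Mb, that of ITGAV -0.05 within 2 Mb (7 neighbours) and -0.19 within 10 Mb, and that of ITGB6 -0.21 within 2 Mb. The difference in the ITGB6 share stayed positive in every alternative, 0.00857 to 0.17 percentage points, and none could pass the exact test. Depth limits ITGB6, with 84 to 160 counts per library.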

Other observations

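ITGAL, the α chain of LFA-1, was at 0.354, 0.176 and 0.24 CPM in LOC401312 libraries 1 to 3, against 1.33, 0.519 and 0.715 CPM in vector libraries 1 to 3 (log2 change -1.73, edgeR adjusted p = 0.0543). Its partner ITGB2 was at 4.98, 5.67 and 5.98 CPM in LOC401312, against 8.82, 6.06 and 6.6 CPM in vector (log2 change -0.37, edgeR adjusted p = 0.198). For both, the highest value was in vector library 1, and the other vector libraries were also above every LOC401312 library. The leukocyte marker PTPRC had 256 counts in that library, against 0 to 8 counts in each of the other 5, and the T cell marker CD3E had 55 counts there and 0 in each of the other 5. The part of these counts in ITGAL and ITGB2 was not tested. ITGA1, another collagen-binding α chain, next to ITGA2 on chromosome 5, was at 4.22, 4.56 and 4.33 CPM in LOC401312 libraries 1 to 3, against 3.68, 3.09 and 1.67 CPM in vector libraries 1 to 3. The groups did not overlap, but the change of 0.63 did not pass over all features (edgeR adjusted p = 0.168). These genes were named after their values were seen.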
